A study of Mus musculus with 9 samples.

Results

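The Nrf2 antioxidant response was followed through 10 genes: Nfe2l2, which encodes the transcription factor Nrf2, Keap1, which encodes its inhibitor, and the antioxidant genes Slc7a11, Gclc, Gclm, Gsr, Txnrd1, Srxn1, Prdx1 and Nqo1. They were chosen by symbol, through GENCODE mouse release M21, from the 47729 gene identifiers listed, and all 10 were among the 13223 genes with enough reads to be tested. Their transcripts were counted by RNA-seq in 9 libraries of peritoneal macrophages purified by flow cytometry, 3 each of monocyte-derived, tissue-converted and tissue-resident cells.

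Every mouse was Cx3cr1CreERT2-IRES-EYFP/+ and Rosa26-stopfl-tdTomato/+: a Cre that works only with tamoxifen is driven with EYFP from Cx3cr1, a chemokine receptor gene active in monocytes, and Cre switches on red tdTomato. Cells of the monocyte-derived group were taken 4 days after an injection of 2 ml thioglycollate, which irritates the peritoneum and recruits monocytes from the blood. Mice of the converted group were given 2 ml of thioglycollate and kept on a tamoxifen diet for 10 weeks. For the resident group the labels name no treatment of its own. Mice of all 3 groups also received IL-4 complexes, made of 5 µg cytokine and 25 µg of an antibody against it, on alternate days over the last 4 days before harvest, so there was no group without IL-4. The sort gates are not stated. The labels give neither age nor sex, and leave it unsaid whether each library had its own mouse. The p-values therefore reflect only how libraries vary within groups, and that variation may be technical. This spread was estimated from all 3 groups together, so each comparison also carries the spread of the group left out of it.

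Nrf2 is held in the cytoplasm by Keap1, an adaptor that hands it to the Cul3 ubiquitin ligase. When oxidants or electrophiles modify cysteines of Keap1, Nrf2 escapes degradation, enters the nucleus, pairs with a small Maf protein and binds antioxidant response elements near genes for cystine import, glutathione synthesis and recycling, the thioredoxin system and quinone detoxification. Since Nrf2 is controlled mainly through the stability of its protein, the Nfe2l2 transcript level is not a measure of Nrf2 activity. Macrophages make oxidants themselves through the phagocyte NADPH oxidase, and several of the same antioxidant genes, Slc7a11 among them, are also controlled by ATF4, the transcription factor of the amino acid response.

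The libraries held 15220884 to 20496258 reads in genes. Macrophage markers were abundant in every library: the 8 listed markers summed to 3832 to 6514 CPM (read counts scaled to library size, corrected with TMM factors) in monocyte-derived cells, 6335 to 7899 in converted libraries and 6681 to 6998 in resident ones. The single markers were not alike across groups. Against monocyte-derived cells, 3 of the 8 were higher and 2 lower in converted and likewise in resident cells (adjusted p under 0.05, edgeR). That was 62.5% in each comparison, beside 50.7% of all genes. Markers of other cells differed between the groups. The 10 B-cell markers summed to 40.1 to 84.7 CPM in monocyte-derived cells, 82.6 to 196.6 in converted libraries and 1222 to 1592 in resident ones, with Ighm, the immunoglobulin heavy chain, the highest. The 9 neutrophil markers, among which S100a9 was highest in monocyte-derived cells alone (12.3 CPM, against 0 and 0.0183), summed to 20.9 to 55.9, 1.69 to 2.15 and 1.05 to 2.69 CPM, and the 8 NK-cell markers, led by Gzma, to 20.5 to 127.6, 1.74 to 3.1 and 17.6 to 28.4 CPM. The dendritic-cell sum (7 markers, Cd209a highest) was 173.4 to 188.8 CPM in resident libraries against 18.4 to 72 in monocyte-derived and 21.5 to 81 in converted ones. Cd209a alone had means of 171.8, 20 and 48.5 CPM in these groups, so the resident sum was almost wholly this 1 gene. T-cell markers (9, Cd28 highest over all libraries, but Lck in resident cells) summed to at most 32.4 CPM, eosinophil and mast-cell markers (10, Il5ra highest over all libraries, but Cma1 in monocyte-derived cells) to at most 24.4 and mesothelial and stromal markers (9, Col3a1 highest) to at most 9.59. The libraries also differed by sex-linked transcripts: Xist, of the inactive X, had 3247 reads over the monocyte-derived libraries, 0 over the converted and 2 over the resident ones, while Y-linked Ddx3y had 0, 5190 and 5218. Differences between monocyte-derived cells and either other group therefore cannot be told apart from a difference in the sex of the mice. In bulk RNA, fewer cells of a type and less RNA per cell cannot be told apart either. Monocyte-derived library 1 stood apart from the others of its group: the chi-square of its counts per degree of freedom was 102.9 and 73.3 against libraries 2 and 3, which differed from each other by 35.0, and results that rest on it are given with and without it.

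Against monocyte-derived cells, 3 members were higher in both converted and resident cells: Nqo1, Gclm and Gsr. Slc7a11, Gclc and Prdx1 were lower in both, and Txnrd1 was lower in resident cells. The changes ran from a 23.6-fold lower level of Slc7a11 to a 4.64-fold higher level of Nqo1, both in converted cells. Converted and resident cells themselves were told apart by Txnrd1 alone among the 10. The first 2 comparisons share the monocyte-derived libraries, so their values stand side by side and are not independent of each other.

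In converted against monocyte-derived cells, 6 of 10 members passed an adjusted p of 0.05 over all genes tested (edgeR's quasi-likelihood test), where 50.7% of all genes passed. Of these, 3 were higher (25.8% of all genes) and 3 lower (24.9%), 4 differed by at least 2-fold (24.6%), and the libraries of the groups did not overlap for 6 members (56.3%). The median log2 change of the members was -0.07 and that of all genes -0.01. In resident against monocyte-derived cells, 7 of 10 passed, again beside 50.7% of all genes. There 3 were higher (25.7% of all genes) and 4 lower (24.9%), 4 differed by at least 2-fold (24.3%), and 8 did not overlap (59.5%), with medians of -0.26 for the members and 0.00 for all genes.

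In converted against resident cells 1 of 10 passed, where 6.07% of all genes did. It was higher (1.82% of all genes), none was called lower (4.26%) or differed by at least 2-fold (3.43%), 4 did not overlap (37.3%), and the medians were 0.12 and 0.01. Against monocyte-derived cells the share of members called lay above that of all genes, at 60% in converted and 70% in resident cells beside 50.7%. On 10 members such differences amount to few genes, and they were not tested. The members did not move in a single direction. The 6 and 7 calls against monocyte-derived cells held under every alternative tried, each library left out included. Without monocyte-derived library 1, 3 members were higher and 4 lower in converted cells, 3 higher and 6 lower in resident cells, and Txnrd1 remained the single call between converted and resident cells.

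**Figure D1:**
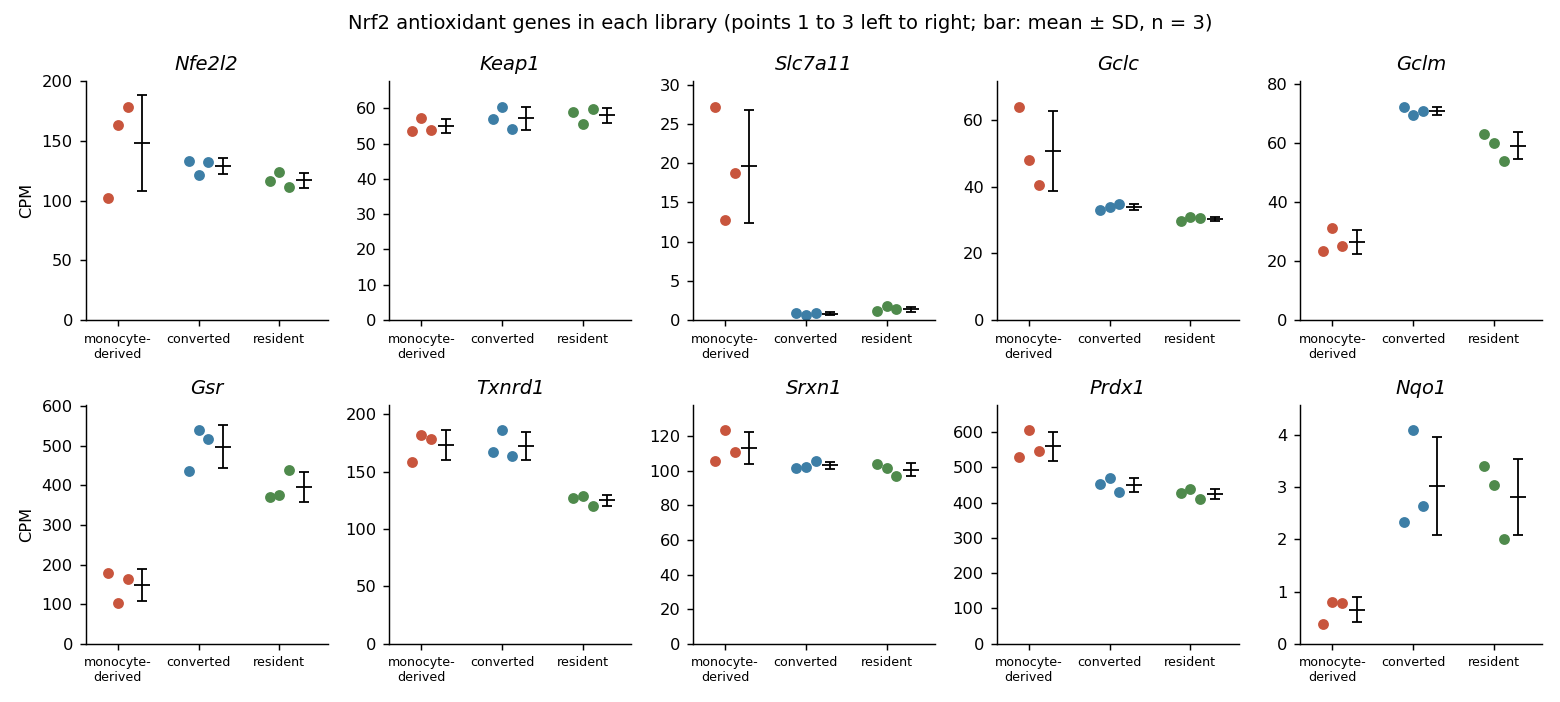
Level of each of the 10 genes in CPM (y axis, from 0) in the 3 libraries of each group (points, libraries 1 to 3 from left to right), with the mean ± SD beside them. Slc7a11 and Gclc sit highest in monocyte-derived libraries, Gclm, Gsr and Nqo1 lowest there, and Txnrd1 is lower in the resident libraries than in all others.

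**Figure D2:**
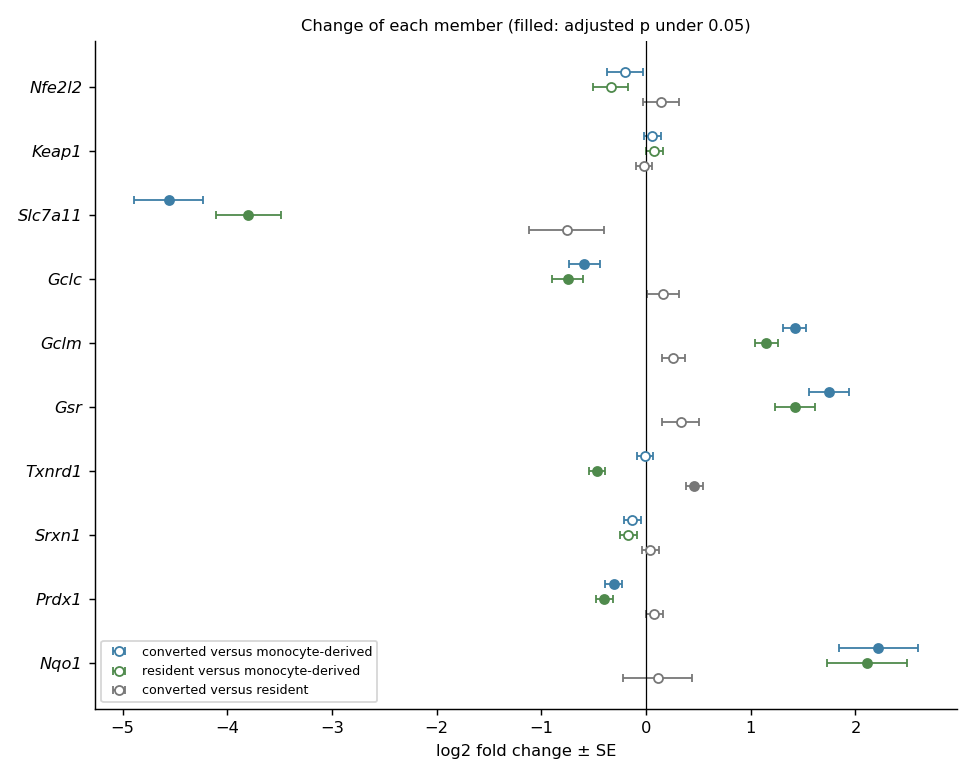
Log2 fold change (x axis) with its SE for each gene in the 3 comparisons, filled where the adjusted p was under 0.05. The changes against monocyte-derived cells range from -4.56 for Slc7a11 to 2.22 for Nqo1, while only Txnrd1 is filled for converted against resident cells.

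Nfe2l2 (ENSMUSG00000015839, GRCm38 chr2:75675513-75704641, minus strand), the gene of Nrf2, read 102.7, 163.3 and 178.9 CPM in monocyte-derived libraries 1 to 3. It read 133.5, 121.5 and 132.7 CPM in converted libraries and 116.5, 123.9 and 111.5 CPM in resident ones. Monocyte-derived library 1 was the lowest of all 9 and the other monocyte-derived libraries were the highest, so the groups overlapped. The log2 change was -0.20 ± 0.17 (SE; adjusted p = 0.358, edgeR) in converted and -0.34 ± 0.17 (adjusted p = 0.126) in resident cells. Without monocyte-derived library 1 both passed, at -0.40 (adjusted p = 0.00179) and -0.55 (adjusted p = 0.000262), so this gene's result rests on that library.

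Keap1 (ENSMUSG00000003308, chr9:21229730-21239361, minus strand), the inhibitor that presents Nrf2 for degradation, lay within a narrow range. It read 53.7, 57.3 and 53.9 CPM in monocyte-derived cells, 56.9, 60.5 and 54.1 in converted, and 58.9, 55.6 and 59.7 in resident libraries. The 3 groups overlapped, and the log2 changes were 0.06 ± 0.08 in converted and 0.08 ± 0.08 in resident against monocyte-derived cells (adjusted p = 0.578 and 0.427, edgeR). Its exons share 510 bases with the overlapping gene Gm16754, which held 94 reads over all libraries against 9445 of Keap1. Per kilobase of exon, Keap1 stood at 0.317 ± 0.094 of the Nfe2l2 level in monocyte-derived cells, 0.359 ± 0.0384 in converted and 0.402 ± 0.0356 in resident libraries (mean ± SD, n = 3). Exact two-sided permutation tests gave p = 0.5, 0.3 and 0.2 for converted against monocyte-derived, resident against monocyte-derived and converted against resident, where 3 libraries against 3 cannot go below 0.1.

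Slc7a11 (ENSMUSG00000027737, chr3:49892526-50443614, minus strand) encodes xCT, the transport subunit of the exchanger that brings in cystine for glutathione synthesis. The bases before its RefSeq transcript start (GRCm38.p6, chr3:50443615-50443863, minus strand) are shown because they hold the motif TGATGCAA 2 times, once on each strand, beginning 66 and 47 bases before the start. This is the composite C/EBP and ATF element that ATF4 is known to bind. The capitals mark the motif.
Slc7a11: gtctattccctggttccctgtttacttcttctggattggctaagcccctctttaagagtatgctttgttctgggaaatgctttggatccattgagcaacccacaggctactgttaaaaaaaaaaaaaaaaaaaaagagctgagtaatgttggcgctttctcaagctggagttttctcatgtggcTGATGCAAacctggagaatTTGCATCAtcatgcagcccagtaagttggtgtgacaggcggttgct

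TGATGCAA, searched on both strands, occurred in 0.895% of the 32851 RefSeq windows of this length (250 bases before to 50 after a start). Among the 10 windows of the 8 members with a window, Slc7a11 alone held it, and it held no TGACNNNGC, the core of the antioxidant response element. Such matches describe the letters and are no evidence of binding. The gene read 27.2, 12.8 and 18.8 CPM in monocyte-derived libraries, against 0.847, 0.682 and 0.956 CPM in converted and 1.1, 1.73 and 1.37 CPM in resident ones. Every monocyte-derived library lay above every other library, with 222 to 511 reads per library against 13 to 33.

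Slc7a11 was thus 23.6-fold lower in converted cells (log2 change -4.56 ± 0.33, adjusted p = 2.91e-06, edgeR) and 14-fold lower in resident cells (-3.80 ± 0.31, adjusted p = 6.74e-06). Converted libraries all lay below resident ones, but the log2 difference of -0.76 ± 0.36 did not pass (adjusted p = 0.274). Its partner Slc3a2, the heavy chain that carries xCT and several amino acid transporters to the membrane, read 459, 301.8 and 327.5 CPM in monocyte-derived libraries. It read 61.6, 100 and 83.6 CPM in converted and 97.2, 112.3 and 97.2 CPM in resident libraries, 4.44-fold lower (log2 change -2.15 ± 0.20, adjusted p = 2.11e-05) and 3.55-fold lower (-1.83 ± 0.20, adjusted p = 5.66e-05). Both subunits of the cystine exchanger were therefore lower in converted and resident cells, without overlap between the libraries.

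Glutamate-cysteine ligase makes the first and rate-limiting step of glutathione synthesis and consists of a catalytic subunit, Gclc, and a modifier subunit, Gclm, which raises its activity. The subunits moved in opposite directions. Gclc (ENSMUSG00000032350, chr9:77754535-77794485, plus strand) read 64, 47.9 and 40.5 CPM in monocyte-derived cells, 32.9, 33.9 and 34.8 in converted, and 29.6, 30.8 and 30.6 in resident libraries. All monocyte-derived libraries lay above all others, and Gclc was 1.5-fold lower in converted (log2 change -0.59 ± 0.15, adjusted p = 0.00719, edgeR) and 1.68-fold lower in resident cells (-0.75 ± 0.15, adjusted p = 0.00193). Library 1 was the highest, and without it the log2 changes were -0.38 (adjusted p = 0.00785) and -0.55 (adjusted p = 0.001). The spread among monocyte-derived libraries, 50.8 ± 12 CPM (SD, n = 3), was far wider than the 33.9 ± 0.94 of converted and 30.3 ± 0.666 of resident libraries.

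The bases before the start of Gclm (ENSMUSG00000028124, chr3:122245557-122270732, plus strand) are shown from chr3:122245307-122245556, plus strand, since they hold 1 antioxidant response element core, TGACNNNGC. It reads TGACGGTGC on the other strand, begins 134 bases before the start, and is in capitals.
Gclm: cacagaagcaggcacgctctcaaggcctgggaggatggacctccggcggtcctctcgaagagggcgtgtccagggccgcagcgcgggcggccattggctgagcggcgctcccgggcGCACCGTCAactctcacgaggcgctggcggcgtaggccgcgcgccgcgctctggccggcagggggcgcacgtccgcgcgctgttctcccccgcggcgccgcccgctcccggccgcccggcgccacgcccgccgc

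Gclm read 23.2, 31 and 25.1 CPM in monocyte-derived libraries, 72.2, 69.3 and 70.6 in converted and 62.8, 60 and 53.9 in resident ones. The 3 groups did not overlap, with monocyte-derived lowest and converted highest. Gclm was 2.67-fold higher in converted (log2 change 1.42 ± 0.11, adjusted p = 6.32e-06, edgeR) and 2.23-fold higher in resident cells (1.15 ± 0.11, adjusted p = 2.51e-05), while the difference between converted and resident cells, 0.26 ± 0.11, did not pass (adjusted p = 0.212). The exons of Gclm share 296 bases with the antisense-strand gene Gm17494, and without a stated strand setting their reads cannot be told apart there. Gm17494 itself stood at 10.8 ± 1.25, 11.5 ± 1.72 and 12.5 ± 2.05 CPM in monocyte-derived cells, converted and resident libraries.

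Per kilobase of exon, the Gclc level divided by the Gclm level was 4.61, 2.58 and 2.7 in monocyte-derived libraries. It was 0.762, 0.817 and 0.823 in converted and 0.787, 0.857 and 0.949 in resident libraries. On this scale the catalytic subunit was thus the higher in every monocyte-derived library and the modifier in every other library. The scale divides by all annotated exon bases, 3766 for Gclc and 6291 for Gclm. The transcripts made in these cells may be shorter, so ratios such as 0.949 leave the order of abundance unsure. The exact permutation test gave p = 0.1 for each group against monocyte-derived cells, the smallest that 3 against 3 allows, and p = 0.3 for converted against resident cells.

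**Figure D3:**
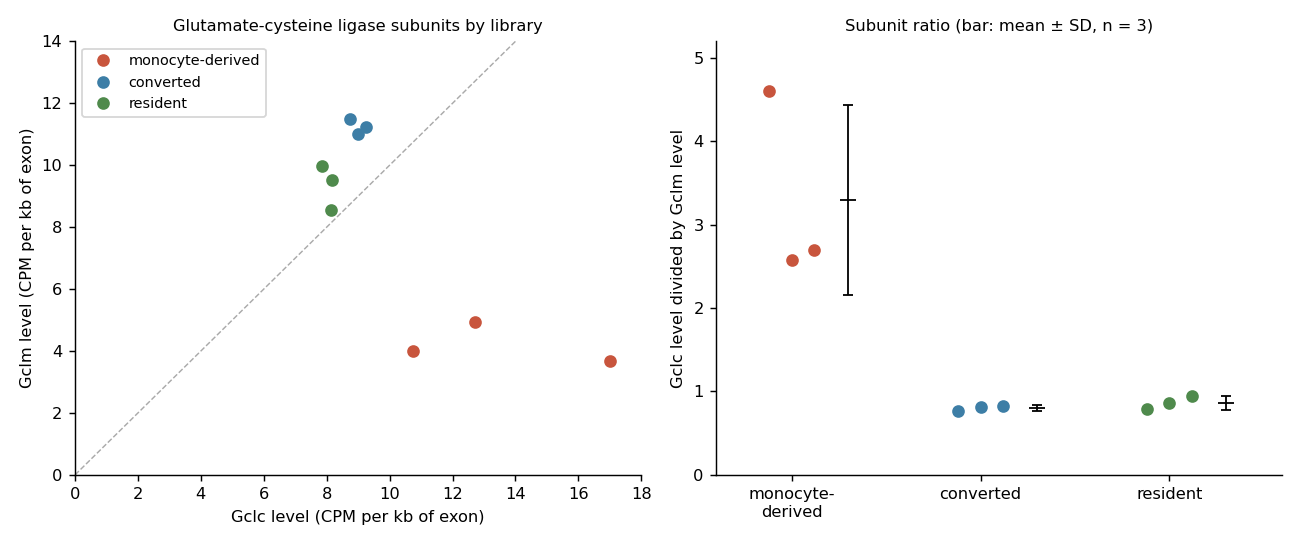
Left, the Gclm level (y axis) against the Gclc level (x axis) in each library, both in CPM per kilobase of exon, with a dashed line where they are equal. Right, the Gclc level divided by the Gclm level per library with mean ± SD: 3.29 ± 1.14 in monocyte-derived cells, 0.801 ± 0.034 in converted and 0.864 ± 0.0812 in resident libraries.

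Gsr (ENSMUSG00000031584, chr8:33652523-33698163, plus strand) encodes glutathione reductase, which returns oxidised glutathione to its reduced form with NADPH. It read 179.4, 103 and 162.4 CPM in monocyte-derived libraries, 436.8, 539.4 and 517.5 in converted and 371.5, 376.5 and 440 in resident ones. The lowest converted or resident library held over 300 CPM and no monocyte-derived library reached 200. Gsr was 3.36-fold higher in converted (log2 change 1.75 ± 0.19, adjusted p = 4.87e-05, edgeR) and 2.67-fold higher in resident cells (1.42 ± 0.19, adjusted p = 0.000175). Converted and resident libraries overlapped, and their difference of 0.33 ± 0.18 did not pass (adjusted p = 0.351).

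Txnrd1, Srxn1 and Prdx1 belong to the thiol peroxidase system of the cytosol. Prdx1 (ENSMUSG00000028691, chr4:116685544-116700822, plus strand) is a peroxiredoxin that reduces hydrogen peroxide, Srxn1 (ENSMUSG00000032802, chr2:152105516-152111376, plus strand) is sulfiredoxin, which repairs over-oxidised peroxiredoxins, and Txnrd1 (ENSMUSG00000020250, chr10:82833951-82897712, plus strand) is the reductase that keeps thioredoxin reduced. The bases before Srxn1 (chr2:152105274-152105515) and Prdx1 (chr4:116685349-116685543), both on the plus strand and ending at the base before the GENCODE gene, are shown because each holds an element of the antioxidant response or AP-1 type. In capitals are TGAGTCAGC in Srxn1, beginning 45 bases before the RefSeq start, and in Prdx1 a TGACNNNGC match that reads TGACTCAGC on the other strand and begins 133 bases before the RefSeq start.
Srxn1: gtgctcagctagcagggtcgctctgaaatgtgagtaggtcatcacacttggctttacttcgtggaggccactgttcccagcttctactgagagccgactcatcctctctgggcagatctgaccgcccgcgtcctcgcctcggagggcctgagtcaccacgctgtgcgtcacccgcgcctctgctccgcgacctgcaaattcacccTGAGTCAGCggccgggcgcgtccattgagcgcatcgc
Prdx1: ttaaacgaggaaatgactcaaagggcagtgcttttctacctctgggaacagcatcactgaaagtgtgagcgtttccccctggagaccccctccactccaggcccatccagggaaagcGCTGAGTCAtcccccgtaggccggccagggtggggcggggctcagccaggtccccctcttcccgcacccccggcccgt

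TGACNNNGC, which does not cover TGAGTCAGC on the same strand, was searched on both strands. It occurred in 12.4% of the 32851 windows and in 5 of the members' 10 windows: those of Nfe2l2, Gclm, Srxn1 and Prdx1 and 1 of the 3 of Txnrd1. In Srxn1 this match lay after the start. TGAGTCAGC occurred in 0.414% of all windows and, among the members, in Srxn1 alone. Neither motif was found in the windows of Keap1 and Nqo1, which says only that these letters are not there.

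Txnrd1 read 158, 182.2 and 178.5 CPM in monocyte-derived libraries, 167.1, 185.9 and 163.9 in converted and 126.9, 128.8 and 119.6 in resident ones. All resident libraries lay below all others, while monocyte-derived and converted libraries overlapped. For Txnrd1 the log2 change in resident against monocyte-derived cells was -0.47 ± 0.08 (1.38-fold lower, adjusted p = 0.00115, edgeR), and in converted against monocyte-derived cells -0.01 ± 0.08 (adjusted p = 0.962), with a sign that varied between alternatives.

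Txnrd1 was 1.38-fold higher in converted than in resident cells (log2 change 0.46 ± 0.08, adjusted p = 0.0122). It was the single member called there, and the call ended without resident library 1 (adjusted p = 0.0592) or resident library 3 (adjusted p = 0.0776). The summed B-cell markers differed in the opposite direction, at 82.6 to 196.6 CPM in converted and 1222 to 1592 CPM in resident libraries. Of the 10 markers, 10 were called lower in converted cells. Called lower there too were 4 of 7 T-cell, 3 of 6 NK-cell, 4 of 6 eosinophil and mast-cell and 1 of 6 dendritic-cell markers tested. Of the neutrophil markers 0 of 5 were called. The part of these cells in the Txnrd1 difference was not tested.

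Prdx1, per kilobase the most abundant member in monocyte-derived cells, read 528.4, 604.7 and 544.8 CPM there. It read 453.4, 468.8 and 430.1 CPM in converted and 427.7, 438.2 and 410 CPM in resident libraries. No monocyte-derived library overlapped the others, and Prdx1 was 1.24-fold lower in converted (log2 change -0.31 ± 0.08, adjusted p = 0.0081, edgeR) and 1.32-fold lower in resident cells (-0.40 ± 0.08, adjusted p = 0.00219). Converted and resident libraries overlapped, with a difference of 0.08 ± 0.08 (adjusted p = 0.607).

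Srxn1 read 105.3, 123.3 and 110.6 CPM in monocyte-derived cells, 101.8, 102.4 and 105.5 in converted and 103.8, 101.3 and 96.7 in resident libraries. The values of converted cells reached into the monocyte-derived range, and those of resident cells stayed just below it. The log2 changes were -0.13 ± 0.08 (adjusted p = 0.186, edgeR) and -0.17 ± 0.08 (adjusted p = 0.0978). Without monocyte-derived library 1 the change in resident cells passed, at -0.22 (adjusted p = 0.0342).

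Nqo1 (ENSMUSG00000003849, chr8:107388225-107403206, minus strand) encodes a quinone reductase that is widely used as a readout of Nrf2. Monocyte-derived libraries held little of it, 0.373, 0.809 and 0.776 CPM, or 7, 14 and 12 reads. It read 2.34, 4.09 and 2.64 CPM in converted and 3.41, 3.04 and 2 CPM in resident libraries, from 41 to 78 reads each. Every monocyte-derived library lay below every other library.

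Nqo1 was 4.64-fold higher in converted (log2 change 2.22 ± 0.38, adjusted p = 0.000894, edgeR) and 4.32-fold higher in resident cells (2.11 ± 0.38, adjusted p = 0.00127). Converted and resident cells overlapped (0.11 ± 0.33, adjusted p = 0.895). With so few reads its SE was among the widest of the members, as was that of Slc7a11.

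CPM per kilobase of annotated exon allows a rough comparison between genes, as the transcripts made may be shorter than all annotated exons together. On this scale Prdx1 led in monocyte-derived cells at 183.8, followed by Gsr at 53.8, Srxn1 at 40.1 and Nfe2l2 at 39.1. The libraries of Gsr and Srxn1 overlapped there, as did those of Srxn1 and Nfe2l2 and of Gclc and Keap1, so these neighbours were not ordered beyond their spread. In converted cells Gsr led at 180.8, before Prdx1 at 148.1, Srxn1 at 36.6, Nfe2l2 at 34 and Txnrd1 at 24.3. The low end was Keap1 at 12.2, Gclm at 11.2, Gclc at 9, Nqo1 at 1.95 and Slc7a11 at 0.0595, and no neighbours overlapped. In resident cells Gsr at 143.8 and Prdx1 at 139.8 overlapped, and the rest followed in the same order as in converted cells, down to Nqo1 at 1.81 and Slc7a11 at 0.1. In monocyte-derived cells Slc7a11, at 1.41, stood above Nqo1, at 0.42.

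The proteins that control Nrf2, or share its DNA elements, were followed through a list of 16 genes, 15 of them tested. In converted against monocyte-derived cells 1 was higher and 7 were lower (median log2 change -0.23), and in resident cells 1 was higher and 7 were lower (median -0.21). In each comparison that was 53.3% of the 15, close to the 50.7% of all genes, whose median changes were -0.01 and 0.00. Of all genes 25.8% and 25.7% were higher and 24.9% lower, so the 8 calls of this list were less even in direction. Of these 8 calls in each comparison, 7 and 5 held under every alternative tried. The gene that was higher was Nfe2, which encodes a relative of Nrf2 that also pairs with small Maf proteins. It read 40.4, 34.9 and 45.8 CPM in monocyte-derived cells, 181.1, 164.2 and 202.2 in converted and 185.9, 191.9 and 181 in resident libraries, 4.52-fold higher (log2 change 2.18 ± 0.11, adjusted p = 3.64e-07, edgeR) and 4.61-fold higher (2.21 ± 0.11, adjusted p = 3.69e-07).

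Among the regulators that fell, Sqstm1, the autophagy receptor that can draw Keap1 into aggregates, went from 453.1 ± 29.5 CPM in monocyte-derived to 219.5 ± 16.3 in converted and 261.8 ± 7.95 in resident libraries (mean ± SD, n = 3). Nfe2l1, a relative of Nrf2 that induces proteasome genes, was 1.82-fold and 1.67-fold lower, and Fbxw11, a receptor of the beta-TrCP ligase that degrades Nrf2 without Keap1, 1.48-fold and 1.76-fold lower. Maff stayed under 20 CPM and was picked after its values were seen. Its group means were 8.67, 0.705 and 0.982 CPM, in the order given for Sqstm1. Between converted and resident cells 1 of 15 was called (6.67%, beside 6.07% of all genes). It was Bach2, a repressor highly expressed in B cells (1.49 ± 0.162 against 4.12 ± 0.976 CPM, adjusted p = 0.0344, edgeR), which was named after its values were seen. That call ended without any single converted or resident library (adjusted p = 0.0774 to 0.15), under the replicate block (0.0677) and in limma-voom (0.0566). Between these groups B-cell markers, and part of the other markers named with Txnrd1, moved in the same direction. In monocyte-derived cells Bach2 stood at 5.3 ± 2.33 CPM, while the B-cell markers summed to 40.1 to 84.7 CPM there. The part of such cells in the Bach2 difference was not tested.

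Other known targets of Nrf2 were followed through 29 genes, 27 of them tested, and they did not share a direction. In converted cells 10 were higher and 6 lower than in monocyte-derived cells (median log2 change 0.23), and in resident cells 12 were higher and 7 lower (median 0.27). That was 59.3% and 70.4% of the 27, beside 50.7% of all genes in each comparison, of which 25.8% and 25.7% were higher and 24.9% lower. Of these 16 and 19 calls, 14 and 16 held under every alternative. Me1, malic enzyme, went from 0.339 ± 0.381 CPM in monocyte-derived to 21.2 ± 10.7 in converted and 21.6 ± 5.83 in resident libraries (mean ± SD, n = 3). This was 59.6-fold higher in converted (log2 change 5.90 ± 0.65, adjusted p = 6.42e-05, edgeR) and 60.8-fold higher in resident cells. The size of these folds rests on few reads in monocyte-derived cells: without library 2 of that group they were 139.1 and 143.1, and in limma-voom 94.6 and 102.8. Ephx1, an epoxide hydrolase, was 5.08-fold and 4.33-fold higher, and Blvrb, biliverdin reductase B, 3.54-fold and 3.39-fold higher.

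The targets that fell include Hmox1, haem oxygenase 1, at 301.7 ± 86.7 CPM in monocyte-derived cells, 162 ± 18.1 in converted and 180.5 ± 23.8 in resident libraries (1.86-fold lower, adjusted p = 0.00442, and 1.67-fold lower, adjusted p = 0.0119, edgeR). Abcc1, an exporter of glutathione conjugates, was 2.41-fold and 2.99-fold lower, Ugdh, which makes UDP-glucuronate, 1.72-fold and 2.31-fold lower, and Slc48a1, a haem transporter, 1.63-fold and 1.68-fold lower. Larger shifts lay among genes under the 20 CPM asked of named genes, here picked after their values were seen. Akr1b8 averaged 17.7 CPM over the monocyte-derived group, yet 0.529 CPM over the converted and 0.292 CPM over the resident group. Marco went the other way, with group means of 0.0755, 8.6 and 10.2 CPM in that order. Thus Hmox1 and Nqo1, which often serve as readouts of Nrf2, moved in opposite directions. For Hmox1, monocyte-derived library 1 (203.6 CPM) lay below resident library 1 (207.1 CPM), so these groups overlapped. Its calls held under every alternative. Between converted and resident cells 1 of 27 was called (3.7%), where 6.07% of all genes passed. It was Cbr3, a carbonyl reductase named after its values were seen, at 3.98 ± 0.783 CPM in converted and 11.3 ± 0.93 in resident libraries (2.84-fold lower in converted cells, adjusted p = 0.00265, edgeR). The 10 B-cell markers were also called lower in converted cells. So were 4 of 7 T-cell, 3 of 6 NK-cell, 4 of 6 eosinophil and mast-cell and 1 of 6 dendritic-cell markers tested. Their part in the Cbr3 difference was not tested.

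Glutathione handling was followed through 19 further genes, 15 of them tested. Against monocyte-derived cells 4 were higher and 5 lower in converted cells (median log2 change 0.03), and 3 were higher and 5 lower in resident cells (median 0.02). That was 60% and 53.3% of the 15, near the 50.7% of all genes in each comparison. Of these 9 and 8 calls, 5 and 7 held under every alternative. Ggct, the gamma-glutamylcyclotransferase of glutathione turnover, was the largest to rise among those named, from 3.8 ± 0.705 CPM to 23.5 ± 3.69 in converted and 24.9 ± 1.85 in resident libraries (6.16-fold and 6.52-fold; adjusted p = 1.58e-06 and 1.49e-06, edgeR). Slc3a2, given above, had the largest fall among those with at least 20 CPM in the higher group, and Glrx, glutaredoxin 1, was 1.62-fold and 1.63-fold lower. Chac1 lay under that level and was picked after its values were seen. Its group means were 14.8, 1.4 and 1.95 CPM, in the order given for Ggct.

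Smaller calls in that list depended on single libraries. Gpx3, a secreted glutathione peroxidase, was 1.95-fold higher in converted cells (adjusted p = 0.0184, edgeR), but not without converted library 1 (0.0606) or 3 (0.0607). Glrx3 was 1.2-fold lower in converted cells (adjusted p = 0.0235), but not without monocyte-derived library 2 (0.062), converted library 2 (0.0804) or converted library 3 (0.0937), with no filter on low counts (0.116) or with the 2 groups fitted alone (0.0681). In resident cells Glrx3 was 1.32-fold lower (adjusted p = 0.0024). Gpx4, which reduces lipid peroxides, was 1.52-fold higher in resident cells at an adjusted p of 0.0488, and leaving out monocyte-derived library 3 (0.0894) or any single converted or resident library ended that call (0.0631 to 0.116), as did no filter on low counts (0.15), the replicate number as a block (0.0516) and fitting the 2 groups alone (0.0867). Between converted and resident cells 0 of 15 were called by edgeR, where 6.07% of all genes passed. In this list 1 had an unadjusted p under 0.05, DESeq2 called 1 and limma-voom 0. Gpx1, the most abundant of the 15, stood at 2547 ± 204.8 CPM in converted and 2290 ± 88.4 in resident libraries.

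The thioredoxin, peroxiredoxin and dismutase list held 18 genes beside the members, all tested. In converted against monocyte-derived cells 10 were higher and 3 lower (median log2 change 0.46), and in resident cells 12 were higher and 3 lower (median 0.36). Of all genes 25.8% and 25.7% were higher and 24.9% lower, with medians of -0.01 and 0.00, and the 72.2% and 83.3% called among these 18 stand beside 50.7%. Of these 13 and 15 calls, 12 in each comparison held under every alternative. Prdx4, the peroxiredoxin of the endoplasmic reticulum, went from 68.7 ± 26.2 CPM in monocyte-derived to 176 ± 12.1 in converted and 147 ± 5.33 in resident libraries (2.56-fold and 2.14-fold higher, adjusted p = 0.00129 and 0.00425, edgeR). Msrb1, a methionine sulfoxide reductase, was 4.82-fold and 4.02-fold higher, and Sesn1, a sestrin, 6.09-fold and 4.44-fold higher. Its relative Sesn2, which is induced in the amino acid response, was 4.25-fold and 3.92-fold lower. The mitochondrial Txn2 and Txnrd2 were lower too, by 1.31-fold and 1.47-fold in converted and 1.38-fold and 1.6-fold in resident cells. Prdx1 fell, therefore, while the other peroxiredoxins, Prdx2, Prdx3, Prdx4, Prdx5 and Prdx6, were all called higher in both comparisons, although the call of Prdx6 in resident cells ended under several alternatives. Prdx2, Prdx3 and Prdx5 were named after their values were seen.

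Prdx6, a peroxiredoxin that acts with glutathione, was the 1 gene of the 18 called between converted and resident cells (5.56%, beside 6.07% of all genes). It stood at 162.2 ± 2.12 CPM in monocyte-derived cells, 271.6 ± 23 in converted and 190.7 ± 7.99 in resident libraries (mean ± SD, n = 3). It was 1.42-fold higher in converted than in resident cells (log2 change 0.51 ± 0.08, adjusted p = 0.00652, edgeR) and 1.67-fold higher than in monocyte-derived cells (adjusted p = 4.13e-05). Its 1.18-fold higher level in resident than in monocyte-derived cells (adjusted p = 0.0317) was lost without monocyte-derived library 3 (0.0568), resident library 2 (0.0953) or resident library 3 (0.0906), and with library-size scaling (0.0809), no filter on low counts (0.0515) or the replicate number as a block (0.0597). Like Txnrd1, it was higher in converted than in resident cells. B-cell markers, and part of the other markers named with Txnrd1, were lower in converted cells. Their part was not tested.

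The phagocyte NADPH oxidase, which makes the superoxide of macrophages, was followed through 7 genes, all tested. In both comparisons with monocyte-derived cells 3 were higher and 2 lower, with medians of 0.31 in converted and 0.18 in resident cells. That was 71.4% of the 7 in each, beside 50.7% of all genes, whose medians were -0.01 and 0.00. Cybb, the catalytic subunit, stood apart in size: 168.8 ± 42.3 CPM in monocyte-derived cells, 1083 ± 64.7 in converted and 819 ± 33.8 in resident libraries, 6.41-fold and 4.85-fold higher (adjusted p = 1.31e-06 and 3.65e-06, edgeR). The other calls were 1.36-fold or smaller. Rac2 was 1.36-fold higher and Rac1 1.34-fold lower in resident cells, and Ncf4 1.25-fold lower in converted cells, and these held under every alternative. The exons of Rac1 share 2309 of their 4496 bases with the opposite-strand gene Daglb, which held 16255 reads over all libraries. Without a stated strand setting, reads of Rac1 and Daglb cannot be told apart there.

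Some smaller oxidase calls did not hold throughout. Rac2 in converted cells (1.24-fold higher) lost its call without converted library 1 (adjusted p = 0.0702, edgeR), with the 2 groups fitted alone (0.0501) and under library-size scaling (0.103). So did Ncf4 in resident cells (1.22-fold lower) without resident library 3 (0.0637) and with no filter on low counts (0.0518), and Rac1 in converted cells (1.17-fold lower) without monocyte-derived library 3, resident library 1 or any single converted library (0.0502 to 0.0812), with no filter (0.118), the replicate number as a block (0.0582) or the 2 groups fitted alone (0.0941). Between converted and resident cells edgeR called 0 of 7, where 6.07% of all genes passed. In this list 2 had an unadjusted p under 0.05, DESeq2 called 1 and limma-voom 0. The most abundant of the 7 were Cyba, the membrane partner of Cybb, with 951.6 CPM in converted and 959.6 in resident libraries, and Rac1.

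The amino acid response driven by ATF4, which also acts on Slc7a11, was followed through 14 genes, 13 of them tested. In converted against monocyte-derived cells 2 were higher and 11 lower, and in resident cells 2 were higher and 10 lower, with medians of -1.38 and -1.49 beside -0.01 and 0.00 for all genes. That was 100% and 92.3% of the 13, beside 50.7% of all genes, of which 24.9% were lower. Of these 13 and 12 calls, 12 and 12 held under every alternative. Asns, asparagine synthetase, read 494.9, 289.6 and 267.2 CPM in monocyte-derived libraries, 3.59, 23.3 and 13.8 in converted and 27.4, 32.3 and 22.3 in resident ones. All monocyte-derived libraries lay above 200 CPM and all others below 40. Asns was 25.9-fold lower in converted (log2 change -4.70 ± 0.56, adjusted p = 0.000109, edgeR) and 12.8-fold lower in resident cells (-3.68 ± 0.53, adjusted p = 0.000348).

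Phgdh, the first enzyme of serine synthesis, stood at 199.1 ± 79.5 CPM in monocyte-derived cells, 1.6 ± 1.21 in converted and 13.5 ± 0.671 in resident libraries. It was 124.1-fold lower in converted and 14.7-fold lower in resident than in monocyte-derived cells (adjusted p = 2.16e-06 and 2.41e-05), and 8.41-fold lower in converted than in resident cells (adjusted p = 0.00512). Trib3, a pseudokinase that restrains ATF4, was 24.1-fold and 13-fold lower, and Ddit4, an inhibitor of mTORC1, 43.4-fold and 12.4-fold lower. Without monocyte-derived library 1 the folds of Ddit4 were 26.3 and 7.51. Without converted library 2 the folds in converted against monocyte-derived cells were larger, at 219.2 for Phgdh, 40.5 for Asns and 38.8 for Trib3, and Phgdh was 14.9-fold lower than in resident cells. Atf4 itself, named after its values were seen, was 2.2-fold and 1.76-fold lower (adjusted p = 4.95e-05 and 0.000424).

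The genes of that list that rose were Cebpb, a transcription factor with many functions in macrophages, 1.95-fold and 2.24-fold higher, and Nupr1, a small stress-induced protein. Nupr1 was 1.94-fold higher in resident cells (adjusted p = 0.000298, edgeR). In converted cells its 1.29-fold higher level (adjusted p = 0.0473) did not hold under 10 of the alternatives, among them leaving out monocyte-derived library 2 (0.121) or 3 (0.092), converted library 3 (0.175) or resident library 3 (0.0648). Its 1.5-fold lower level in converted than in resident cells (adjusted p = 0.0353) ended under the replicate block (0.0518), without converted library 1 (0.129) or 2 (0.119), or without any single resident library (0.052 to 0.16). Between converted and resident cells 2 of the 13 were thus called (15.4%), where 6.07% of all genes passed. Of these, Phgdh alone held its call under every alternative.

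**Figure D4:**
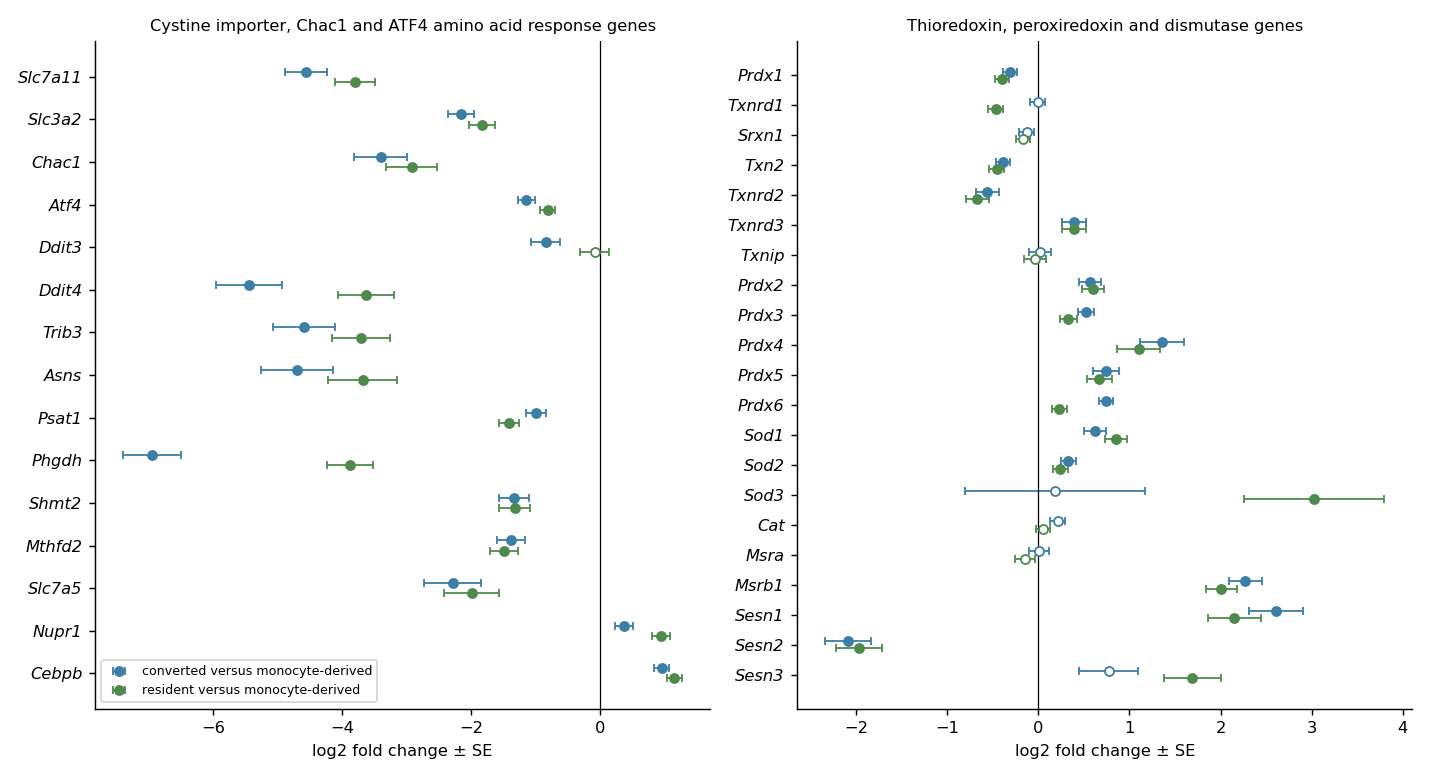
Log2 fold change with its SE against monocyte-derived cells (x axis) in converted and resident cells, filled where the adjusted p was under 0.05. Left, Slc7a11, Slc3a2, Chac1 and genes of the ATF4 list (without Vldlr, which had no read in resident libraries), nearly all to the left of 0 and led by Phgdh at -6.95 in converted cells. Right, the thioredoxin, peroxiredoxin and dismutase genes with Prdx1, Txnrd1 and Srxn1, most of them to the right of 0, with Sesn2 at -2.09 and -1.97 and Prdx1 at -0.31 and -0.40.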

How the data were processed

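RNA-seq of 9 libraries was analysed, starting from the read counts per gene as deposited. TopHat2 2.1.0, HTSeq (without a version) and the build GRCm38 are named in the submitters' processing notes. The annotation, strand setting and treatment of multiply aligned reads are unknown, being not given in the sources used here, so reads of overlapping or antisense genes and of near-identical copies cannot be told apart. Lines of each count file that name no gene did not enter library sizes: reads in no gene were 4.018% to 5.658% and ambiguous reads 4.472% to 4.681%. Of 47729 identifiers, 47224 matched GENCODE M21. ATAC-seq, named in the series' design, was not analysed here.

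Counts were tested in 1 fit of all libraries with edgeR 4.0.16 (R 4.3.3, limma 3.58.1): filterByExpr (minimum count 10, total 15), TMM scaling and the robust quasi-likelihood F-test on 6 residual degrees of freedom. Benjamini-Hochberg adjustment ran over 13223 genes, and a gene was called, or said to rise or fall, at an adjusted p under 0.05. SEs are the log2 change divided by the square root of F. On simulated counts the test recovered 68.8% of 2-fold changes for converted versus monocyte-derived (13166 genes), 73.5% for resident versus monocyte-derived (13135) and 75% for converted versus resident (13173). For 1.5-fold changes it recovered 28%, 26% and 34%. The simulation changed far fewer genes than were called against monocyte-derived cells and gave all groups the same spread, so these shares may not carry over to the data.

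The members, the gene lists and the rule for named genes were chosen with earlier results of these data known. The rule took, per list and comparison, up to 3 called genes in each direction with the largest change among those with at least 20 CPM in the higher group, or, where none was called, the 2 most abundant, and the most abundant marker of each cell type. A gene that the rule takes is not reported here. Promoter windows and motif searches used RefSeq (GRCm38.p6), which matched 8 members and left out Gclc and Gsr. The alternatives tried were limma-voom, DESeq2 1.42.0, 3 other scalings, 2 other filters, protein-coding genes alone, fits of 2 groups, the replicate number as a block, and each library left out.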

Additional observations from a re-analysis of the deposited data

How the results depend on the processing

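The members called numbered 6, 7 to 8 and 1 in converted versus monocyte-derived, resident versus monocyte-derived and converted versus resident cells under all alternatives that kept every library, and 6 to 7, 7 to 9 and 0 to 1 with 1 library left out. The count of 0 came without resident library 1 (3 members at an unadjusted p under 0.05) and without resident library 3 (1 member). DESeq2 and limma-voom each called 1 on all libraries. Over all genes, leaving out 1 library gave 5886 to 6845, 5680 to 6875 and 245 to 1628 calls. The last range is wide: 1628 came without monocyte-derived library 1 and 245 without resident library 3, against 803 with all libraries. That comparison also gave 2067 calls when the 2 groups were fitted alone and 1315 with DESeq2. Its 240 higher and 563 lower calls became 133 and 606 under upper-quartile scaling and 126 and 543 under library-size scaling. The causes were not tested.

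The replicate numbers gave no sign of a pairing of the libraries: the 9 same-numbered pairs correlated at -0.094 to 0.065 in their deviations from the group means. With 3 libraries per group, this check cannot exclude that same-numbered libraries were handled together. With the replicate number as a block the calls were 6276, 6339 and 530, and members called stayed at 6, 7 and 1.

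Signs of members turned only where the change was smaller than its SE. Txnrd1 in converted versus monocyte-derived cells (-0.01) came to 0.01 under upper-quartile scaling, with the 2 groups alone and in DESeq2, to 0.03 with no filter, and ranged from -0.07 to 0.04 with 1 library left out, above 0 at 0.02 to 0.04 without monocyte-derived library 2 or 3 or converted library 1 or 3. Between converted and resident cells, Srxn1 came to -0.01 under upper-quartile scaling, Nqo1 to -0.17 without converted library 2 and -0.09 without resident library 3 (range -0.17 to 0.26), and Keap1 to 0.02 without converted library 3 (range -0.06 to 0.02).

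List counts without monocyte-derived library 1, an alternative chosen after seeing the data, moved by over 1.5 times only between converted and resident cells: regulators 2 called, other targets 4, glutathione handling 1, thioredoxin system 4, NADPH oxidase 1 and ATF4 response 4. Few reads limit Nqo1 and, outside monocyte-derived cells, Slc7a11.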
